A study of Mus musculus with 22 samples.

Results

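The genes described are 9 enzymes of the kidney tubule: Mep1a, Mep1b, Anpep, Dpep1, Ggt1, Miox, Xpnpep2, Treh, and Acy3. They were chosen by symbol from the table of counts, in which each had 1 row. They are 9 of the 32858 genes with at least 1 read in the table, and all 9 were among the 17131 genes that passed a filter on low counts and were tested. Of the 9, the genes other than Miox and Acy3 encode hydrolases that sit on the luminal membrane of tubule cells, whereas the products of Miox and Acy3 are mainly cytosolic, and Miox and Treh encode no peptidase.

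Kidneys came from male C57Bl6/J mice aged 8 to 10 weeks that carried no tumor. Of the 22 mice, 5 received vehicle, 6 received KW6002, 5 received cisplatin, and 6 received cisplatin plus KW6002, and each mouse gave 1 poly(A) RNA-Seq library. Cisplatin, a platinum anticancer drug that injures the kidney, was given i.p. at 3 mg/kg on 6 days from day 0, and tissue was taken 72 hours after the last dose. KW6002 (istradefylline), an adenosine receptor antagonist, was given i.p. at 3 mg/kg each day from day -5 to day 7, and the vehicle was its carrier of DMSO, cremophor, and saline. The comparisons ask what cisplatin does to the kidney and whether KW6002 alters it. Libraries held 26471762 to 40510754 counts. As a check of the labels, the tubular injury markers Havcr1 and Lcn2 were each below 10 CPM in all 11 kidneys without cisplatin, from 505 to 745 CPM and from 540 to 1482 CPM in the cisplatin kidneys, and from 61.8 to 320 CPM and from 237 to 333 CPM with co-treatment. CPM are counts scaled to a common library size, here after TMM scaling.

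The proximal tubule reclaims most of what the glomerulus filters, and its cells carry a dense brush border of microvilli on the side that faces the urine. Enzymes anchored there cut filtered peptides, glutathione, and sugars into pieces that transporters can take up. These enzymes are classic markers of the proximal tubule, the segment that takes up cisplatin and is injured by it. Since whole kidneys were sequenced, fewer proximal tubule cells and less RNA per cell cannot be told apart in any result below.

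The starts of 3 of the genes are shown because they frame the range of behavior: Miox, one of the most reduced genes after cisplatin, Treh, whose level with co-treatment was nearest to vehicle among the genes that cisplatin lowered, and Anpep, which cisplatin did not lower. RefSeq promoter windows (mouse GRCm38.p6, 250 bases before to 50 bases after a start site, 5′ to 3′ on the gene's strand) were given for 8 of the 9 genes, 11 windows in all, because Ggt1 has 4. The letters CAAAGTCCA, an HNF4 motif, were searched on both strands, and a match is in capitals. They lie in 0.475% of 32851 RefSeq promoters and, among the 11 windows, in Treh alone, 71 bases before the start site. A match is a run of letters and not a measured site. The windows are chr15:89334223-89334522 on the plus strand for Miox, chr9:44672983-44673282 on the plus strand for Treh, and chr7:79848161-79848460 on the minus strand for Anpep.
Miox: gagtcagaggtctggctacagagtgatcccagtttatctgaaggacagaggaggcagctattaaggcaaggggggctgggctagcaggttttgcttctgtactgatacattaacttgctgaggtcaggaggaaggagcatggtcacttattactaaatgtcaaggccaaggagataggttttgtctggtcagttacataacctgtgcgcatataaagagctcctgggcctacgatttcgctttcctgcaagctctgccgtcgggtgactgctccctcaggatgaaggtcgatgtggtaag
Treh: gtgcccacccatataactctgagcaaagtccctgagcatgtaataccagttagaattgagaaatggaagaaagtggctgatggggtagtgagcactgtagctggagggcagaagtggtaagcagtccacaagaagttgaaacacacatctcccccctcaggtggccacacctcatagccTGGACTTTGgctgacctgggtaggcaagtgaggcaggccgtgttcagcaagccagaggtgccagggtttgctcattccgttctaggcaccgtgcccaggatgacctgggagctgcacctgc
Anpep: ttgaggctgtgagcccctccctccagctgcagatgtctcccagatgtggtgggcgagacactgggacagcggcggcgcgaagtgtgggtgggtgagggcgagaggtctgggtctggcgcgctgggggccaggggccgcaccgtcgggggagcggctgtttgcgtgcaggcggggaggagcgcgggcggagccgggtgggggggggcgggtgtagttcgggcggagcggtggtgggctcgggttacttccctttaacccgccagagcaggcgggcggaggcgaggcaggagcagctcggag
The Anpep window lies inside the annotated gene and is 72.3% G and C. The windows of the other 7 genes are 42.3% to 60.3% G and C, and the median over all promoters is 52.7%, with quartiles of 45.7% and 61.7%.

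In vehicle kidneys, the 9 genes together took 0.729% of all counts (range, 0.703% to 0.774%, n = 5). Per kilobase of exon, Miox was the most abundant at 1212 ± 174 CPM per kb (SD, n = 5), followed by Acy3 at 833 ± 38.0, Mep1a at 574 ± 80.4, and Ggt1 at 399 ± 12.8. Mep1b at 81.6 ± 24.6, Dpep1 at 81.1 ± 6.87, Treh at 56.4 ± 2.07, and Anpep at 47.7 ± 3.97 CPM per kb formed a lower tier, in which Mep1b and Dpep1 differed by less than their SDs. Xpnpep2 was the lowest at 5.33 ± 0.924 CPM per kb. The order was different in cisplatin kidneys. Mep1a was then highest at 247 ± 58.7 CPM per kb, ahead of Acy3 at 110.0 ± 24.2 and Ggt1 at 79.9 ± 19.1. Anpep came next at 48.3 ± 4.72, above Miox at 31.5 ± 13.2, and Xpnpep2 at 0.514 ± 0.183 and Mep1b at 1.05 ± 0.704 CPM per kb were lowest.

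**Figure D1:**
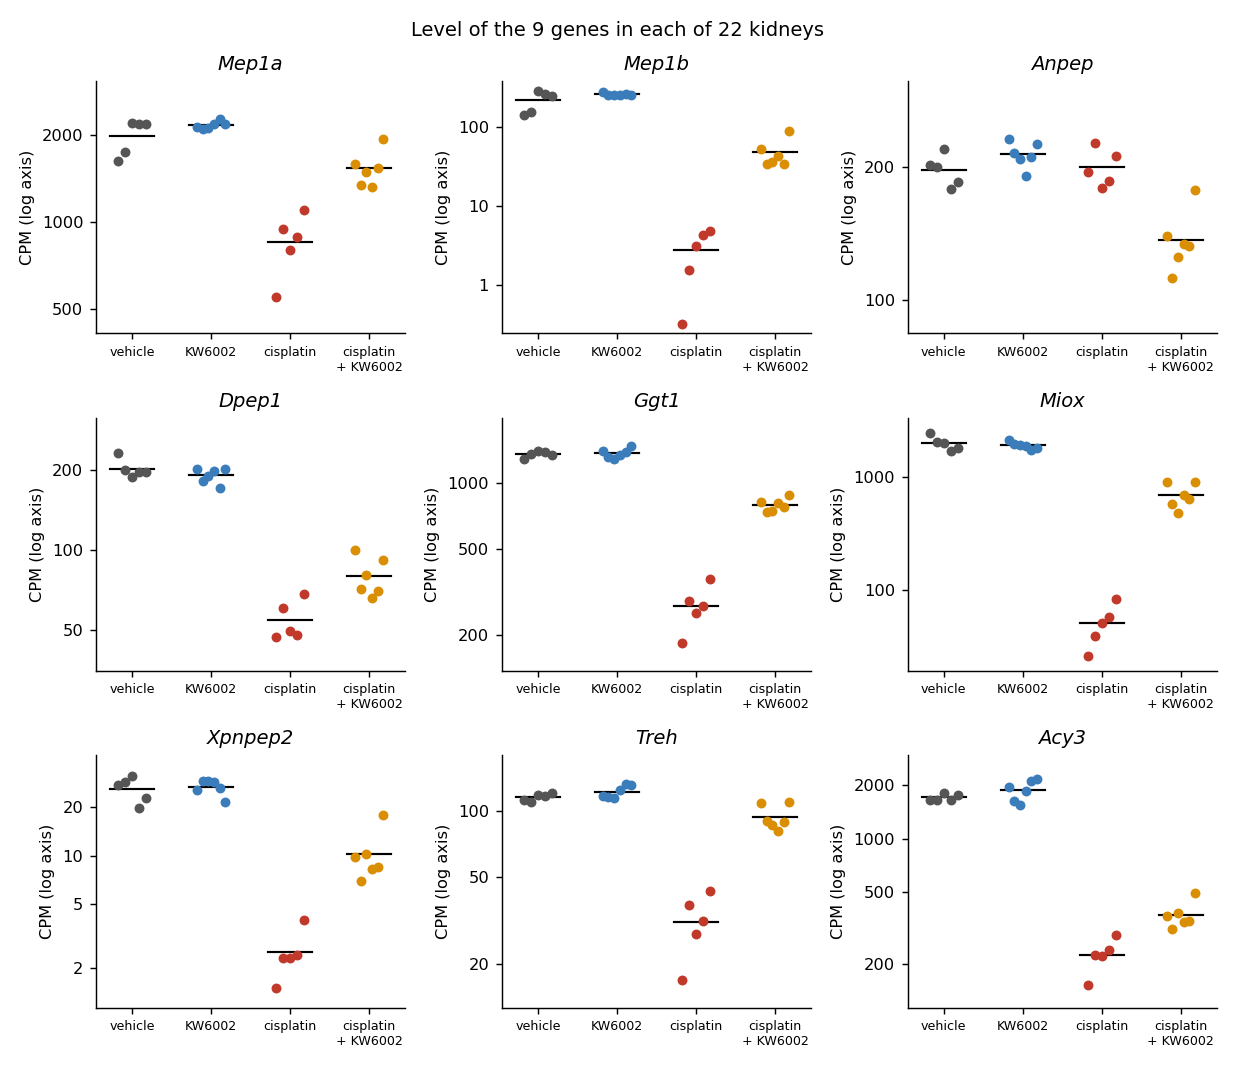
Level of each of the 9 genes in every kidney, in CPM on a log axis, with 1 point per mouse, a bar at the group mean, and n of 5, 6, 5, and 6 for vehicle, KW6002, cisplatin, and cisplatin plus KW6002. For 8 genes the 5 cisplatin kidneys lie below all vehicle kidneys, whereas for Anpep the vehicle, KW6002, and cisplatin points overlap and the co-treated points are lowest.

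Cisplatin lowered 8 of the 9 genes relative to vehicle at an adjusted p below 0.05 (edgeR quasi-likelihood F test, Benjamini-Hochberg over 17131 genes), and Anpep was not called. Over all genes tested, 35.9% were called lower and 34.6% higher in the same comparison. The 8 genes also passed a stricter criterion, an adjusted p under 0.01 together with a change of over 2-fold, which 12.1% of all genes met in the downward direction. In the same 8 genes the 5 cisplatin kidneys did not overlap the 5 vehicle kidneys, which was true of 55.3% of all genes. The log2 fold changes of the 9 genes ran from -6.28 to 0.02 with a median of -2.32, beside a median of -0.01 over all genes. Scaling by library size alone moved the median of all genes in this comparison by 0.22 and split the calls of all genes into 8157 higher and 4244 lower, against 5930 and 6155 with TMM. For co-treatment against vehicle the shift was 0.16, with 7394 higher and 3525 lower instead of 5108 and 5114. For co-treatment against cisplatin the split was 4091 higher and 5435 lower instead of 4900 and 4664. For the difference of the KW6002 effects it was 3041 higher and 4107 lower instead of 3902 and 3410.

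Adding KW6002 to cisplatin raised 8 of the 9 genes relative to cisplatin alone and lowered Anpep. Of all genes tested, 28.6% were called higher and 27.2% lower. By the stricter criterion 5 genes rose (Mep1b, Ggt1, Miox, Xpnpep2, and Treh), against 4.65% of all genes, and 0 fell, against 5.66%. The 6 co-treated and 5 cisplatin kidneys did not overlap for 8 of the 9 genes (37.8% of all genes), Dpep1 being the exception. Relative to vehicle, 8 genes were still lower with co-treatment (29.9% of all genes), none was higher (29.8%), and Treh was not called. By the stricter criterion 5 were lower and 0 higher, against 7.59% and 5.83% of all genes, and the groups did not overlap for 8 of the 9 genes, against 37.5%. The comparisons share the cisplatin, vehicle, or co-treated kidneys, so their values are not independent.

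KW6002 alone changed none of the 9 genes relative to vehicle (edgeR adjusted p from 0.646 to 0.970), with log2 fold changes from -0.08 to 0.25. None of the 9 reached an unadjusted p below 0.05 (lowest 0.202, for Anpep), which 1930 of the 17131 genes did, DESeq2 called none of the 9 either, and over all genes edgeR called 0.0175% higher and 0 lower. The interval was widest for Mep1b, from -0.35 to 0.86 on the log2 scale, and the KW6002 and vehicle kidneys overlapped for each of the 9 genes (1.38% of all genes had no overlap). The KW6002 effect with cisplatin minus that without it was positive for 8 genes and negative for Anpep, by a test of the difference itself (22.8% of all genes positive, 19.9% negative). For Anpep the log2 fold change with KW6002 was -0.55 with cisplatin and 0.12 without it. Under the stricter criterion 5 of these differences were positive and 0 negative, against 4.24% and 4.33% of all genes.

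**Figure D2:**
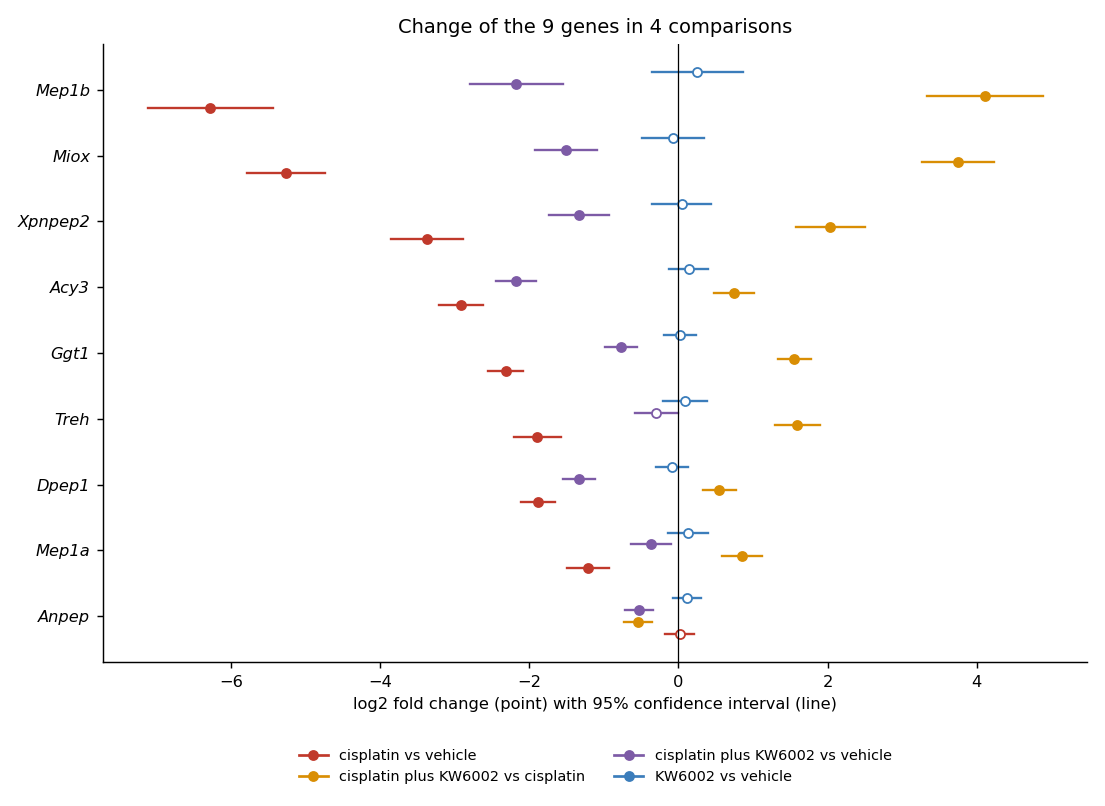
Log2 fold change (points) with 95% confidence interval (lines) of each gene in 4 comparisons from 1 edgeR fit, with genes ordered from the lowest to the highest value for cisplatin against vehicle. Filled points passed an adjusted p of 0.05. Values for cisplatin against vehicle run from -6.28 for Mep1b to 0.02 for Anpep, and all 9 points for KW6002 against vehicle are open.

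Mep1a and Mep1b encode the alpha and beta subunits of meprin, a zinc metalloprotease of the brush border, in which beta spans the membrane and can hold alpha there. Mep1a lies on chromosome 17 (mm10, 43474324 to 43502812, minus strand). It was 1619.7, 1744, 2192, 2178, and 2176 CPM in vehicle kidneys 1 to 5 and 547, 940.4, 799, 884, and 1096 CPM in cisplatin kidneys 1 to 5. With co-treatment it ran from 1318 to 1930 CPM (median, 1515), above each cisplatin kidney and overlapping vehicle. It fell by 1.22 ± 0.14 (SE) on the log2 scale with cisplatin (adjusted p = 3.74e-08) and was 0.85 ± 0.13 higher with co-treatment than with cisplatin (adjusted p = 8.92e-06). The co-treated kidneys were 0.37 below vehicle (log2 fold change -0.37 ± 0.13, adjusted p = 0.0163), a call that was lost with scaling by library size alone (-0.21, adjusted p = 0.122).

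Mep1b lies on chromosome 18 (mm10, 21061923 to 21100199, plus strand) and had the largest change of the 9 genes both for cisplatin against vehicle and for co-treatment against cisplatin. Vehicle kidneys 1 to 5 had 139, 151, 280.1, 259, and 242 CPM, with kidneys 1 and 2 below the other 3. Cisplatin kidneys 1 to 5 had 0.320, 1.51, 3.04, 4.20, and 4.76 CPM, which is 12 to 168 reads per library. The highest cisplatin kidney was at 2.22% of the vehicle mean. Co-treated kidneys ran from 33.7 to 86.9 CPM (median, 39.0), between the other groups without touching either, and averaged 22.1% of the vehicle mean. The log2 fold changes were -6.28 ± 0.41 for cisplatin against vehicle (adjusted p = 3.88e-12), 4.11 ± 0.37 for co-treatment against cisplatin (adjusted p = 5.59e-09), and -2.17 ± 0.30 for co-treatment against vehicle (adjusted p = 1.90e-06). Both subunits of the enzyme were lower after cisplatin, Mep1a at 43.1% and Mep1b at 1.29% of the vehicle mean.

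Anpep encodes aminopeptidase N, which trims neutral amino acids from the amino end of peptides (chromosome 7, mm10, 79821803 to 79861059, minus strand). It was 202, 200.4, 220.2, 178, and 185 CPM in vehicle kidneys 1 to 5 and 195, 227, 179, 186, and 211 CPM in cisplatin kidneys 1 to 5. The groups overlapped throughout, and the log2 fold change was 0.02 (95% interval, -0.17 to 0.21, adjusted p = 0.870). In co-treated kidneys Anpep ran from 112 to 177.5 CPM (median, 133), with all 6 below the lowest vehicle and the lowest cisplatin kidney. The highest of the 6 came only just under the lowest vehicle kidney, at 178.05 CPM. It fell by 0.55 ± 0.09 on the log2 scale relative to cisplatin (adjusted p = 1.87e-05) and by 0.53 ± 0.09 relative to vehicle (adjusted p = 2.48e-05). Among the 9 genes Anpep alone was lower with co-treatment than with cisplatin. With scaling by library size alone Anpep was called higher after cisplatin (0.23, adjusted p = 0.0218), a value close to the shift of 0.22 in the median of all genes.

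Xpnpep2 encodes the membrane-bound aminopeptidase P, which removes the residue before a proline (chromosome X, mm10, 48108725 to 48136981, plus strand). Vehicle kidneys 1 to 5 had 27.5, 28.6, 31.1, 19.9, and 22.9 CPM, and cisplatin kidneys 1 to 5 had 1.52, 2.31, 2.32, 2.43, and 3.96 CPM, or 57 to 140 reads. Co-treated kidneys ran from 7.00 to 17.9 CPM (median, 9.14), between the other groups without overlap. The gene fell by 3.38 ± 0.23 on the log2 scale with cisplatin (adjusted p = 1.15e-11) and was 2.04 ± 0.22 higher with co-treatment than with cisplatin (adjusted p = 9.37e-08). Co-treated kidneys averaged 39.5% of the vehicle mean. After cisplatin, the mean of Anpep stood at 101% and that of Xpnpep2 at 9.65% of vehicle.

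Ggt1, Dpep1, and Acy3 act in the handling of glutathione and its conjugates. Ggt1 encodes gamma-glutamyltransferase 1, which removes the glutamyl group of glutathione outside the cell (chromosome 10, mm10, 75561604 to 75586200, plus strand). Its level was 1294, 1359, 1402, 1397, and 1346 CPM in vehicle kidneys 1 to 5 and 183, 288, 254, 273, and 364 CPM in cisplatin kidneys 1 to 5. Co-treated kidneys had 739 to 887 CPM (median, 798), again between the other groups without overlap. The log2 fold changes were -2.32 ± 0.11 for cisplatin against vehicle (adjusted p = 3.32e-14), 1.55 ± 0.11 for co-treatment against cisplatin (adjusted p = 9.20e-11), and -0.77 ± 0.10 for co-treatment against vehicle (adjusted p = 1.23e-06). Vehicle kidneys differed little for Ggt1, with a coefficient of variation of 3.22%, against 23.9% after cisplatin.

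Dpep1 encodes dipeptidase 1, which splits the cysteinyl-glycine left by gamma-glutamyltransferase (chromosome 8, mm10, 123186242 to 123201812, plus strand). Vehicle kidneys 1 to 5 had 231, 199, 187, 195, and 195 CPM, with kidney 1 above the rest, and cisplatin kidneys 1 to 5 had 46.8, 60.5, 49.5, 47.9, and 68.3 CPM. Co-treated kidneys ran from 66.1 to 100.1 CPM (median, 75.7), so that the lowest lay below the highest cisplatin kidney. Dpep1 fell by 1.88 ± 0.11 on the log2 scale with cisplatin (adjusted p = 9.97e-13) and was 0.55 ± 0.11 higher with co-treatment (adjusted p = 0.000133). It stayed 1.34 below vehicle in co-treated kidneys (log2 fold change -1.34 ± 0.10, adjusted p = 3.39e-10).

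Acy3 encodes aminoacylase 3, which removes the acetyl group from mercapturates, the end products of glutathione conjugates (chromosome 19, mm10, 3986570 to 3990007, plus strand). Vehicle kidneys 1 to 5 had 1643, 1647, 1807, 1649, and 1762 CPM, and cisplatin kidneys 1 to 5 had 151, 223, 222, 237, and 289.9 CPM. Co-treated kidneys ran from 314 to 496 CPM (median, 359), just above the cisplatin kidneys and far below vehicle. Acy3 fell by 2.92 ± 0.14 on the log2 scale with cisplatin (adjusted p = 3.64e-14) and was 0.74 ± 0.13 higher with co-treatment (adjusted p = 4.40e-05). At 22.1% of the vehicle mean in co-treated kidneys, Acy3 and Mep1b were the farthest from vehicle of the 9 genes. The effect of KW6002 in the presence of cisplatin exceeded that in its absence by 0.61 ± 0.18 (adjusted p = 0.00970), a difference that was not called among mice whose labels carry numbers in the 500s (0.49, adjusted p = 0.121).

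Miox encodes myo-inositol oxygenase, which opens the ring of myo-inositol in the first step of its breakdown and is made almost only in the proximal tubule (chromosome 15, mm10, 89334398 to 89337015, plus strand, with the window printed above at its start). Vehicle kidneys 1 to 5 had 2452, 2028, 2015, 1709.9, and 1796 CPM. Cisplatin kidneys 1 to 5 had 26.1, 39.9, 51.4, 58.5, and 84.2 CPM, from 1.31% to 4.21% of the vehicle mean. Co-treated kidneys ran from 478 to 910.2 CPM (median, 668), at 35.0% of the vehicle mean, and overlapped neither group. The log2 fold changes were -5.27 ± 0.25 for cisplatin against vehicle (adjusted p = 2.27e-14), 3.75 ± 0.23 for co-treatment against cisplatin (adjusted p = 1.62e-11), and -1.51 ± 0.20 for co-treatment against vehicle (adjusted p = 1.09e-06). With cisplatin minus without, the KW6002 effect differed by 3.82 ± 0.29 (adjusted p = 2.26e-09), beside 3.86 ± 0.47 for Mep1b.

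Treh encodes trehalase, which splits trehalose into glucose (chromosome 9, mm10, 44673233 to 44686305, plus strand). Its exons share 2 bases with Phldb1 on the other strand. Vehicle kidneys 1 to 5 had 112, 110.4, 118, 118, and 120.3 CPM, and cisplatin kidneys 1 to 5 had 16.8, 37.3, 27.3, 31.4, and 42.9 CPM. Co-treated kidneys ran from 81.1 to 109.6 CPM (median, 89.6), so that the highest came just under the lowest vehicle kidney. Treh fell by 1.89 ± 0.15 on the log2 scale with cisplatin (adjusted p = 1.80e-10) and was 1.59 ± 0.15 higher with co-treatment than with cisplatin (adjusted p = 6.76e-09). The co-treated mean was 81.3% of vehicle, with a log2 fold change of -0.30 ± 0.14 that was not called (adjusted p = 0.0709). It was called when only the 2 groups compared were fitted (-0.30, adjusted p = 0.00454) and without co-treated kidney 6 (-0.35, adjusted p = 0.0438).

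In both cisplatin groups, single kidneys were lowest or highest for most of the 9 genes. Cisplatin kidney 1 was lowest of its group for 8 of the 9 genes and kidney 5 highest for 8, and their summed levels over the 9 genes were 1168 and 2165 CPM. In the same 2 kidneys Havcr1 was 745 and 587 CPM, with 505 to 548 CPM in the other 3, and Lcn2 was 1391 and 539.5 CPM, with 1309 to 1482 CPM in the other 3. Co-treated kidney 6 was highest for 8 genes (sum, 4706 CPM, with 3283 to 4093 CPM in the other 5) and had the lowest Havcr1 of its group at 61.8 CPM. Co-treated kidney 2, with the lowest sum, had the next lowest Havcr1 at 135 CPM. Among vehicle kidneys, kidney 3 was highest for 6 genes and kidney 1 lowest for 4 and highest for 2, and in the KW6002 group no kidney was highest for more than 4 genes or lowest for more than 3. Leaving out any 1 of these kidneys left 8 genes lower with cisplatin and 8 genes higher with co-treatment. Group means of the summed level were 7798 ± 289 CPM in vehicle (SD, n = 5), 8122 ± 351 with KW6002 (n = 6), 1693 ± 363 with cisplatin (n = 5), and 3777 ± 532.2 with co-treatment (n = 6).

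The falls were also read against other genes of the same segment. The 12 proximal tubule markers chosen for this, none of them among the 9 genes, were all lower after cisplatin, with log2 fold changes from -7.08 to -0.44 and a median of -2.92, and 9 were higher with co-treatment than with cisplatin. Each gene was divided by the geometric mean of these 12 markers in the same kidney, and groups were compared by two-sided exact permutation tests with Benjamini-Hochberg adjustment over 27 tests. After cisplatin, Anpep was 2.98 and Mep1a 1.72 higher relative to the markers on the log2 scale (exact permutation, adjusted p = 0.0119 for both). Miox was 2.39 and Mep1b 3.63 lower (log2 differences -2.39 and -3.63, exact permutation, adjusted p = 0.0119 for both). Each of these p-values corresponds to a raw p of 0.00794, the smallest that 5 against 5 kidneys allow. Those 4 differences had the same direction and side of the threshold with the median of the markers or Lrp2 alone as the reference.

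For the other 5 genes the relative result depended on the reference or the pseudocount. Against the geometric mean, Dpep1, Treh, and Ggt1 were higher by 1.07, 1.01, and 0.61 after cisplatin and Xpnpep2 was lower (-0.40, or -0.22 and not called with a pseudocount of 0.5). Against the median of the markers, Dpep1 and Treh were at 0.068 and 0.0061 and Ggt1 at -0.39, none of them called, whereas Acy3 was lower (-0.99) after being at 0.01 against the geometric mean. With co-treatment against cisplatin, 3 genes rose and 4 fell relative to the markers. Mep1b and Miox rose by 2.78 and 2.20 and Anpep and Dpep1 fell by 2.17 and 1.07 (exact permutation, adjusted p = 0.0106 for each), and these 4 were also called against the other references. Xpnpep2 (0.37) was higher and Acy3 (-0.86) and Mep1a (-0.74) were lower. These calls were lost with a pseudocount of 0.5 for Xpnpep2 and against the median of the markers for Acy3 and Mep1a. Mice of the 500s include every kidney of this comparison, so the Xpnpep2 difference there was the same 0.37. Its exact permutation adjusted p was then 0.0501, because the tests against vehicle in the same adjustment had only 2 vehicle mice. Relative to vehicle, co-treated Anpep, Mep1a, and Treh were 0.81, 0.98, and 1.04 above the markers and Mep1b and Acy3 were below them (-0.85 and -0.84), with each of the 3 references (exact permutation, adjusted p from 0.0106 to 0.0219). Among mice with label numbers in the 500s, only 2 were given vehicle, too few for the tests against vehicle to pass their threshold.

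**Figure D3:**
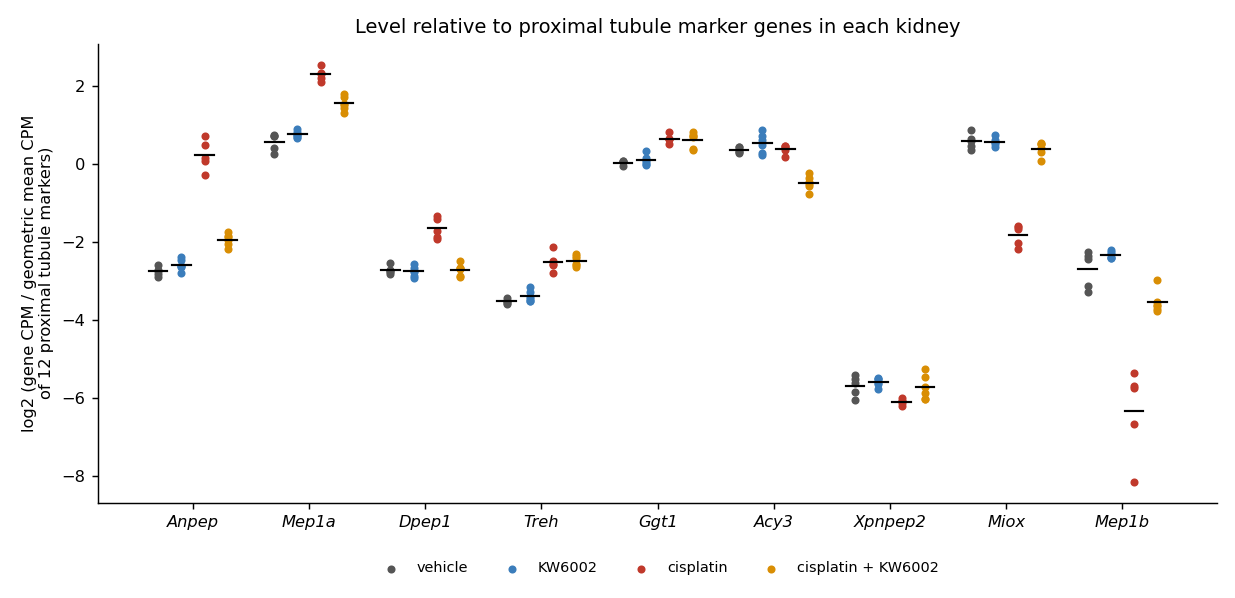
Log2 ratio of each gene's CPM to the geometric mean CPM of 12 proximal tubule markers in the same kidney, with 1 point per mouse and a bar at the group mean. After cisplatin the Anpep and Mep1a ratios are higher than in vehicle (mean differences 2.98 and 1.72) and the Miox and Mep1b ratios lower (-2.39 and -3.63).

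Other hydrolases of the brush border moved in both directions. Of 12 measured, 10 were lower and 2 higher after cisplatin, with a median log2 fold change of -0.84. The shares of all genes tested were 35.9% lower and 34.6% higher. Ace, the angiotensin-converting enzyme, and Enpp3, an ectonucleotide pyrophosphatase, fell by 1.89 and 1.41, whereas Nt5e and Cpm, which encode a 5'-nucleotidase and carboxypeptidase M, were 1.04 and 0.93 higher. With co-treatment against cisplatin 6 of the 12 rose and 2 fell, beside 28.6% and 27.2% of all genes. Among those that rose were Folh1 (1.38), a carboxypeptidase that trims glutamate, and Mgam (0.84), which splits maltose. Those that fell were Nt5e (-0.62) and Cpm (-0.42). The microvillus scaffold, which includes Pdzk1 and Slc9a3r1, had 11 of 14 genes lower and 3 higher after cisplatin, with Pdzk1 at -1.57 and the protocadherin Cdhr2 at 1.39, and 9 of 14 were higher with co-treatment than with cisplatin.

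Enzymes related to the 9 genes by family were also split. Of 12 tested relatives, 5 were higher and 4 lower after cisplatin (median log2 fold change, 0.26). This is near the shares of all genes tested, 34.6% higher and 35.9% lower. The relatives include genes with few reads, such as Dpep3, with 0 to 4 reads in vehicle and 11 to 22 after cisplatin. Aspa and Acy1, aminoacylases like Acy3, fell by 1.99 and 1.29, and Ggt5, the nearest relative of Ggt1, was 0.93 higher. With co-treatment against cisplatin Aspa rose (1.39) and Ggt5 fell (-1.21). Of 14 other enzymes of glutathione and mercapturates, 8 were lower and 6 higher after cisplatin. Nat8, an N-acetyltransferase that makes the mercapturates that Acy3 takes apart, and its relative Nat8f1 fell by 2.19 and 3.97. Nat8 rose by 1.77 and Nat8f1 by 1.71 with co-treatment relative to cisplatin. Gclc and Gsr, for the synthesis and reduction of glutathione, were 2.47 and 1.00 higher after cisplatin. Of 11 genes of inositol synthesis, transport, and breakdown, 6 were lower and 2 higher. Xylb and Sord, which act downstream of Miox and in the polyol pathway, were at -1.86 and -1.73. The 2 higher genes were Isyna1, which makes inositol, at 0.84, and Dcxr. Mean Dcxr was 181 CPM in vehicle, 240 CPM after cisplatin, and 270 CPM with co-treatment.

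**Figure D4:**
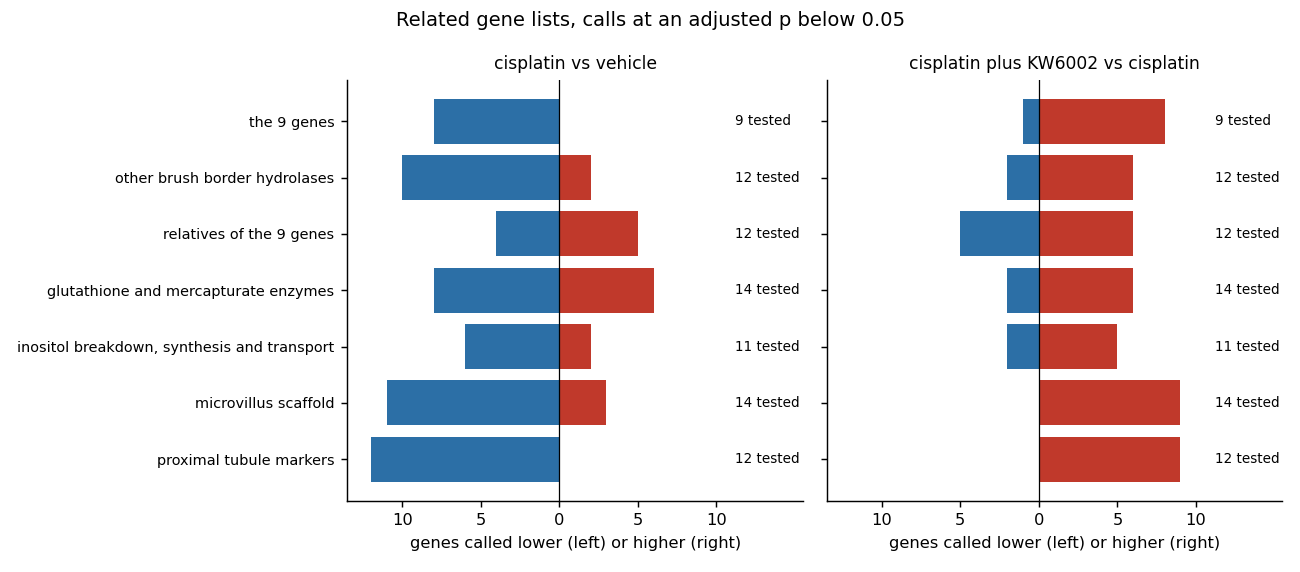
Number of genes called lower (left of 0, blue) or higher (right of 0, red) at an adjusted p below 0.05 in the 9 genes and in 6 related lists, for cisplatin against vehicle and for cisplatin plus KW6002 against cisplatin, with the number tested beside each bar. The 9 genes and the 12 proximal tubule markers have no red bar in the first comparison.

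Markers of some other cells moved with the same groups. The summed level of 4 thick ascending limb markers was 4723 to 7829 CPM in vehicle, 2036 to 2367 CPM after cisplatin, and 2399 to 4313 CPM with co-treatment, with all 4 called lower after cisplatin and 3 called higher with co-treatment than with cisplatin. The summed level of 3 distal convoluted tubule markers was 1589 to 1654 CPM in vehicle, 45.6 to 90.7 CPM after cisplatin, and 156 to 383 CPM with co-treatment. Slc12a3 made up most of this sum, with a mean of 1597 CPM in vehicle. All 3 were called lower after cisplatin, and 2 were called higher with co-treatment than with cisplatin. The sum of 4 fibroblast markers was 155 to 283 CPM in vehicle, 567 to 723 CPM after cisplatin, and 285 to 479 CPM with co-treatment. The sum of 4 podocyte markers overlapped between these groups, with ranges of 467 to 572, 464 to 507, and 435 to 499 CPM in the same groups. All 3 fat markers, Adipoq, Plin1, and Cidec, were lower with co-treatment than with vehicle or with cisplatin, and their summed level ran from 28.8 to 350.5 CPM in vehicle, from 129.7 to 233 CPM after cisplatin, and from 3.14 to 84.1 CPM with co-treatment. None of these markers was at 0 in a whole group. With the mean of the fat markers as a covariate, a fit added after the data were seen, the counts of the 9 genes called were the same in 4 of the 5 comparisons, and between co-treatment and vehicle 7 instead of 8 were lower, since Mep1a had an edgeR adjusted p of 0.0519. Beyond that fit, the part of these cells in the results was not tested.

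The first 3 mice of the vehicle group and of the KW6002 group carry label numbers in the 300s, all other mice, including every mouse given cisplatin, carry numbers in the 500s, and what the numbers mean is not stated. In vehicle kidneys Mep1b averaged 190 CPM in the 300s (n = 3) and 250.5 CPM in the 500s (n = 2), and Miox averaged 2165 and 1753 CPM. Among mice of the 500s alone, the genes called numbered 8 lower with cisplatin, 8 higher and 1 lower with co-treatment against cisplatin, and 8 lower with co-treatment against vehicle. The shares of all genes called among these mice are not given here, so these counts cannot be set against a background. For Acy3 the difference of the KW6002 effects was not called in this fit (0.49, edgeR adjusted p = 0.121). It was still called for the other genes described.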

How the data were processed

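Polyadenylated RNA of 22 kidneys was sequenced from TruSeq stranded libraries. The authors mapped reads to mm10 with STAR and counted them per gene with HTSeq 0.6.1p1, per the labels, and deposited 1 table of counts, whole numbers that were not normalized. Whether counting used strand is not given in the sources used here. A further 66 unnamed, empty columns were not used. Gene symbols, positions, and exon lengths were taken from GENCODE M21 (mm10), which named 32824 of 32858 genes, and promoter windows from RefSeq GRCm38.p6. Dpep2, whose symbol belongs to 2 genes, was left out of the list of relatives.

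Tests were run on the counts in R 4.3.3 with edgeR 4.0.16. A filter of at least 10 counts at the median library size (0.306 CPM) in 5 libraries and 15 counts overall passed 17131 genes, which hold 99.95% of the reads. All 22 libraries entered 1 fit with a mean per group and TMM scaling, groups were compared by the quasi-likelihood F test with p-values adjusted by Benjamini-Hochberg, and a gene was called at an adjusted p below 0.05. The biological coefficient of variation was 0.129. The script was tested on simulated data for cisplatin against vehicle and recovered 200 of 200 changed genes, with 9 others called, among 16437. The simulation gave all genes 1 common spread, changed only well-expressed genes, and left the rest at vehicle levels. In the real comparison 35.9% of genes were called lower and 34.6% higher. The simulation is therefore a check of the script and not of error rates in these data. Ratios to 12 proximal tubule markers used log2(CPM + 0.1). Totals had a median of 32721214.5 counts.

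The 9 genes and the lists were chosen with earlier results of these data known. All 9 genes are named, and each list is shown by up to 2 called genes per direction, those that changed most among genes whose average log2 CPM reached 3. Beyond this rule, all fat markers are named, chosen after their values were seen. Some planned results are not reported here. Alternatives were DESeq2 1.42.0, other scalings and filters, a fit per pair of groups, a block for the replicate number, the label number series, a stricter threshold, other references for the ratio, and each library left out in turn.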

Additional observations from a re-analysis of the deposited data

Results flagged for a closer look

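In 4 of 36 groups of 1 gene, 1 kidney stood apart from the others by Dixon's test, where chance flags about 1 group in 20. Mep1b was 276.5 CPM in KW6002 kidney 1 and 86.9 CPM in co-treated kidney 6, Xpnpep2 was 17.9 CPM in co-treated kidney 6, and Dpep1 was 231 CPM in vehicle kidney 1, each the highest of its group.

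The KW6002 effect differed with and without cisplatin for all 9 genes by the interaction term of the edgeR fit. The log2 difference, the effect with cisplatin minus the effect without, was 3.86 for Mep1b, 3.82 for Miox, 2.00 for Xpnpep2, 1.53 for Ggt1, 1.51 for Treh, 0.72 for Mep1a, 0.63 for Dpep1, 0.61 for Acy3, and -0.66 for Anpep. The adjusted p was highest for Acy3 at 0.00970.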

How the results depend on the processing

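In each comparison the number of the 9 genes called was the same under DESeq2, relative log expression factors, both other filters, and the label series as a covariate, and with each library left out, except that 8 to 9 were then lower for co-treatment against vehicle. Pairing of mice by replicate number was not part of the main fit. Over 31 pairs of same-numbered libraries the correlation of deviations ran from -0.18 to 0.40 (median, 0.008), with 7 pairs over 0.1. Of 22 libraries, 8 correlated best with their own number. These values were not compared with chance, so whether the numbers pair mice was not tested. With the replicate number as a block, 8 genes were lower with cisplatin and 8 higher with co-treatment. Library size alone gave 1 gene higher with cisplatin. Under the stricter criterion of an adjusted p under 0.01 and a change of over 2-fold, 5 were higher and 0 lower with co-treatment against cisplatin, 5 were lower against vehicle, and the difference of KW6002 effects gave 5 higher and 0 lower.

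Uncalled values near 0 changed sign. For KW6002 against vehicle, the block gave Ggt1 -0.0099 and Xpnpep2 -0.0039, and Miox was 0.044 in mice of the 500s and 0.039 with fat markers as a covariate. Leaving out 1 library gave ranges of -0.0057 to 0.034 for Ggt1, -0.12 to 0.014 for Miox, and -0.041 to 0.11 for Xpnpep2, and of -0.031 to 0.059 for Anpep with cisplatin.

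Ratios to proximal tubule markers depended on the reference. Against the median marker, 2 genes were higher with cisplatin, 2 lower with co-treatment against cisplatin, and 5 lower against vehicle. Those lower against vehicle included Miox (-0.72) and Xpnpep2 (-0.56), and Treh was called higher with co-treatment against cisplatin (0.51). Ggt1 was then at -0.39 with cisplatin and 0.44 with co-treatment against cisplatin, Acy3 at -0.99 with cisplatin, and Dpep1 at -0.53 for co-treatment against vehicle. Against Lrp2, the same values were 0.22 for Ggt1 with co-treatment against cisplatin, -0.28 for Acy3, and -0.040 for Dpep1. Xpnpep2 with co-treatment against vehicle was 0.0047 with a pseudocount of 0.5 and 0.23 in mice of the 500s, where 2 vehicle mice leave 0 genes called in either direction. With 1 library left out, ranges were -0.0065 to 0.065 for Acy3 with cisplatin, -0.039 to 0.048 for Dpep1 and -0.12 to 0.037 for Xpnpep2 with co-treatment against vehicle, and, against cisplatin, -0.069 to 0.020 for Ggt1 and -0.037 to 0.14 for Treh. The cause of these changes was not tested.

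Bulk counts give no cell numbers, and 5 or 6 mice per group limit the precision of every value.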

Other observations

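The genes whose level over the 22 kidneys was most like the mean of the 9 genes, among 10421 genes whose average log2 CPM reached 3, were Slc22a2, an organic cation transporter (Pearson r = 0.995), Sardh, which breaks down sarcosine (0.995), Proc, protein C (0.994), 0610006L08Rik (0.993), and Pecr, a peroxisomal reductase (0.992). The 22 kidneys fall into treatment groups, so these values mainly describe shared group differences, and no p is given. Of the 9 genes, Xpnpep2 was closest to their own mean (r = 0.985) and Anpep farthest (r = 0.32).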
